A study of Vitis vinifera with 2 samples.

Results

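Loci at which the predominant siRNA size differed between tissues were examined in grapevine (Vitis vinifera cv. 'Chardonnay'), with 24 nt in one tissue and 21 nt in the other. A locus was a pair of a leaf siRNA cluster and the cluster of embryogenic callus (EC) that overlapped it furthest, by at least 1 bp, and pairs were chosen by their DicerCall, the predominant fragment size that ShortStack assigned to each cluster. Of 36780 leaf clusters with an EC partner, 1020 met the rule. In 794 of them a 24 nt EC cluster lay on a 21 nt leaf cluster (EC24/leaf21 loci), and in 226 a 21 nt EC cluster lay on a 24 nt leaf cluster (EC21/leaf24 loci). No cluster of either set carried ShortStack's miRNA mark, which was present in 22 of all 36780 pairs (0.0598%), and miRNA reads had been removed before clustering.

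EC was proliferating callus established from anthers, pooled from several Petri dishes, and leaf was young leaf tissue pooled from several leaves of the same vines. The tissues came from the same cultivar but also differed in growth, since EC was kept on solid medium in the dark and the leaves were taken from vineyard vines. Tissue and growth condition cannot be told apart. Each tissue gave 1 library, made from 50 mg of material and from RNA fragments of 18 to 35 nt. There was thus no replicate check on any difference between EC and leaf and no test between tissues, and the 95% intervals below (exact binomial for shares, order statistics for medians) cover the counting of loci only. Neighbouring loci are not independent, so these intervals are too narrow where loci lie in runs. The lists held 227847 EC and 89597 leaf clusters on 33 sequences of the PN40024 12X assembly. The score field was empty throughout, so the number of reads behind a cluster, and the margin by which its predominant size led the others, were unknown. A locus where both sizes were almost equally frequent and a locus with a complete change of size cannot be told apart here.

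Plant siRNAs of these sizes come from separate pathways, known mainly from Arabidopsis. RNA polymerase IV transcripts that are copied by RDR2 and cut by DCL3 give 24 nt siRNAs, which guide DNA methylation at transposable elements and other repeats. RDR6 copies and DCL4 cuts other transcripts, among them those cleaved by a miRNA, to give 21 nt siRNAs, which guide cleavage of matching transcripts and, in the non-canonical pathway, can also guide DNA methylation. Long hairpins and overlapping antisense transcripts can feed either route.

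The sets differed in how common they were within their class of paired leaf cluster. EC clusters overlapped 1544 of the 6109 leaf clusters of 21 nt. The partner was of 24 nt for 51.4% of these 1544 (48.9 to 53.9%) and of 21 nt for 449. EC clusters overlapped 24631 of the 53573 leaf clusters of 24 nt. The partner was of 21 nt for 0.918% of these 24631 (0.802 to 1.04%) and of 24 nt for 21310. Over all 36780 paired leaf clusters the EC partner was of 24 nt for 79.7% (79.3 to 80.2%) and of 21 nt for 2.43% (2.27 to 2.59%), so both switching shares lay below the share of that EC size over all pairs. These counts follow from the rule and describe the sets. The choice of partner mattered little for most loci, since the leaf cluster was in turn the furthest overlapping partner of the EC cluster in 746 of the 794 EC24/leaf21 loci (94.0%) and 221 of the 226 EC21/leaf24 loci (97.8%). Only 3 of the 794 leaf clusters also met an EC cluster of 21 nt, and 4 of the 226 also met one of 24 nt.

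The overlap behind a pair was seldom marginal. The overlap had a median of 38 bp (quartiles 24 and 79 bp) at EC24/leaf21 loci and 35 bp (24 and 78.5 bp) at EC21/leaf24 loci, against 44 bp over all pairs. Just inside the limit, 11 EC24/leaf21 loci (1.39%, 0.694 to 2.47%) rested on 5 bp or less, against 0.919% of all pairs. Of these, 2 shared 1 bp, at chromosome 13 (leaf 7717963 to 7718036) and chromosome 14 (leaf 2158639 to 2158754). The only EC21/leaf24 locus with 5 bp or less shared 1 bp, at chromosome 1 (leaf 6429156 to 6429183). Just outside it, 6 leaf 21 nt clusters without EC overlap lay less than 5 bp from a nearest EC cluster of 24 nt, and 1 leaf 24 nt cluster lay as close to a 21 nt one.

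The length change went in opposite directions in the 2 sets. At EC24/leaf21 loci the EC cluster was the longer, with a median of 143 bp (130 to 153 bp) against 68 bp (61 to 73 bp) in leaf. The median ratio of EC to leaf length was 1.89 (1.71 to 2.05), with quartiles of 0.953 and 4.19. The EC cluster was the longer of the pair at 572 loci, the shorter at 215 and of equal length at 7. At EC21/leaf24 loci the EC cluster was the shorter, with a median of 72 bp (62 to 85 bp) against 100 bp (87 to 117 bp) in leaf and a median ratio of 0.723 (0.632 to 0.857). Here it was longer at 87 loci, shorter at 137 and equal at 2. The 24 nt cluster was thus the longer one at 72.0% of EC24/leaf21 and 60.6% of EC21/leaf24 loci. Over the full lists, paired or not, the classes differed in the same directions. Clusters of 24 nt in EC had a median of 95 bp and those of 21 nt in leaf 66 bp. Clusters of 21 nt in EC had 65 bp and those of 24 nt in leaf 71 bp. How far these class lengths account for the change at switching loci was not tested. For EC21/leaf24 loci the ratio was no longer below 1 beyond its interval among clusters of at least 100 bp (0.971, 0.765 to 1.16) or with an overlap of at least 0.5 of the longer cluster (0.928, 0.795 to 1.03).

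**Figure D1:**
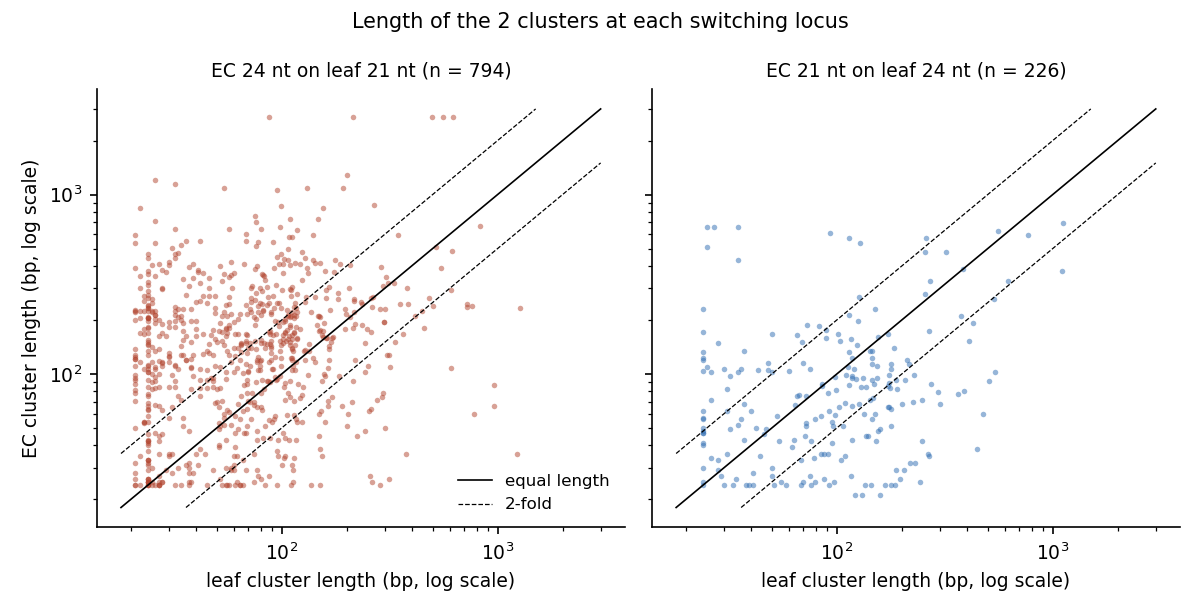
Length of the EC cluster (vertical axis, bp, log scale) against that of the leaf cluster (horizontal axis, bp, log scale) for each of the 794 EC24/leaf21 loci (left) and 226 EC21/leaf24 loci (right), with lines of equal length (solid) and of a 2-fold difference (dashed). More points lie above the line of equal length on the left (572 above, 215 below) and more lie below it on the right (87 above, 137 below).

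Both ratios were set against the general gain in length in EC, where clusters were longer than their leaf partners over all 36780 pairs (median ratio 1.31, 1.29 to 1.33). An EC cluster at least 2 times as long as its leaf partner was found at 374 EC24/leaf21 loci (47.1%, 43.6 to 50.6%) and at 41 EC21/leaf24 loci (18.1%, 13.3 to 23.8%), against 35.7% of all pairs. An EC cluster of at most 0.5 times the leaf length was found at 89 EC24/leaf21 loci (11.2%, 9.10 to 13.6%) and 74 EC21/leaf24 loci (32.7%, 26.7 to 39.3%), against 14.6% of all pairs. Pairs that kept 21 nt had a median ratio of 0.913 (0.841 to 0.985) and pairs that kept 24 nt one of 1.33 (1.30 to 1.34). The interval of EC24/leaf21 loci lay above all of these and that of EC21/leaf24 loci overlapped only that of pairs that kept 21 nt.

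**Figure D2:**
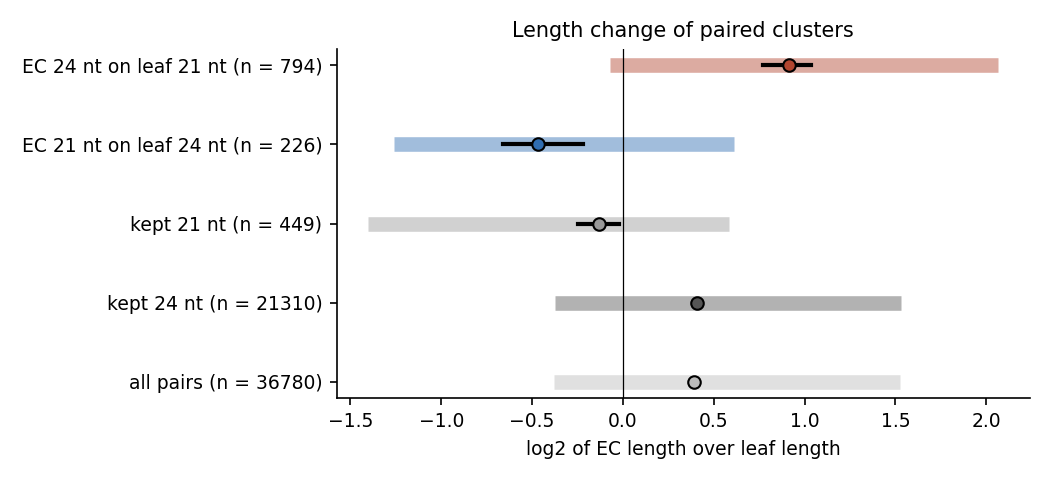
The log2 ratio of EC to leaf cluster length for the EC24/leaf21 and EC21/leaf24 loci, for pairs that kept 21 nt or 24 nt, and for all pairs (circles, medians; black lines, 95% intervals of the median; coloured bars, quartiles). The medians were 0.92 and -0.47 for the 2 switching sets, against -0.13, 0.41 and 0.39 for the others.

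EC lengths were also compared within bins of leaf length. For leaf clusters of 61 to 120 bp, EC partners had a median of 146 bp (131 to 157 bp) at EC24/leaf21 loci and 119 bp (117 to 121 bp) where 24 nt was kept. For leaf clusters of 121 to 240 bp these medians were 178.5 bp (150 to 217 bp) and 145 bp (142 to 149 bp). In leaf clusters over 240 bp the difference was within the intervals (210 bp, 149 to 238 bp, and 181 bp, 175 to 187 bp), and the intervals also met in the bins up to 60 bp. The EC clusters of EC21/leaf24 loci were shorter than kept 24 nt partners in the bins between 31 and 240 bp, with 66 bp (51 to 86 bp) for leaf clusters of 61 to 120 bp and 82.5 bp (64 to 93 bp) for those of 121 to 240 bp. Up to 30 bp they had 57 bp (41 to 109 bp), against 96 to 103 bp (the interval of the median) where 24 nt was kept, and above 240 bp 163 bp (79 to 328 bp), against 181 bp, both within the intervals.

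The 24 nt EC cluster often enclosed the 21 nt leaf cluster. At EC24/leaf21 loci the leaf cluster lay within the EC cluster in 363 cases (45.7%, 42.2 to 49.3%), the EC cluster lay within the leaf cluster in 80 (10.1%), 349 were staggered (170 with EC reaching further to the left and 179 to the right), and 2 had identical ends. At EC21/leaf24 loci the order was turned round, with the EC cluster inside the leaf cluster in 81 cases (35.8%, 29.6 to 42.5%) and the leaf cluster inside the EC cluster in 46 (20.4%, 15.3 to 26.2%). Pairs that kept 24 nt had 39.0% with the leaf cluster enclosed and 19.3% with the EC cluster enclosed, and all pairs 38.1% and 18.9%. The turned order was not particular to EC21/leaf24 loci. Pairs that kept 21 nt also had the EC cluster enclosed more often (42.1%, 37.5 to 46.8%) than the leaf cluster (26.7%, 22.7 to 31.1%). Sequence of the EC cluster beyond the leaf cluster had a median of 76.5 bp (quartiles 14.25 and 179.5 bp) at EC24/leaf21 loci and 15 bp (0 and 54.25 bp) at EC21/leaf24 loci, and 48 bp where 24 nt was kept. The EC cluster reached past the leaf cluster on both sides at 304 of 794 EC24/leaf21 loci, against 6139 of 21310 pairs that kept 24 nt.

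**Figure D3:**
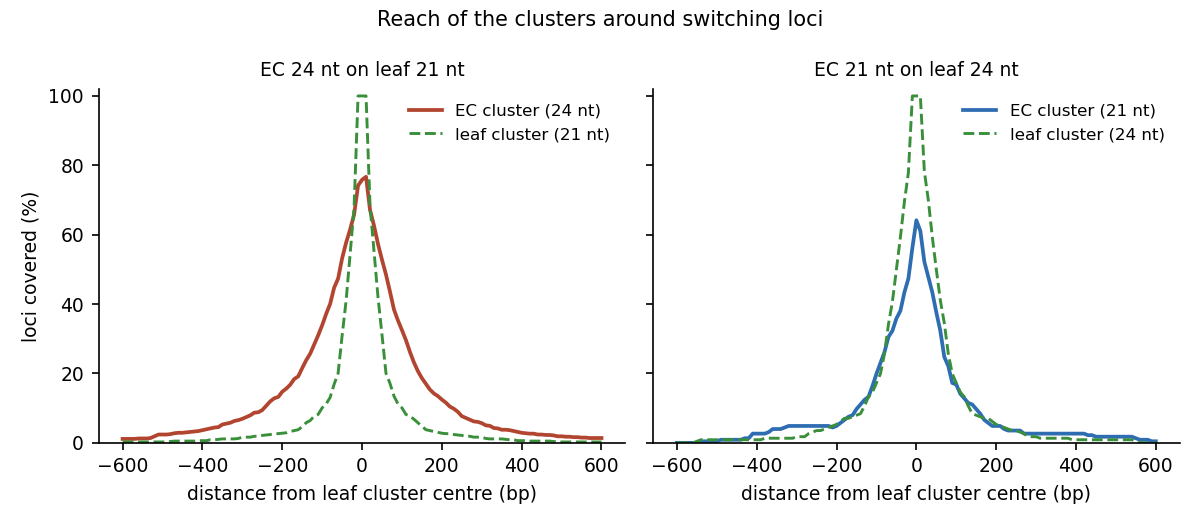
Share of loci (vertical axis, %) covered by the EC cluster (solid) and by the leaf cluster (dashed) at each distance from the centre of the leaf cluster (horizontal axis, bp), for EC24/leaf21 loci (left) and EC21/leaf24 loci (right). At 100 bp to the right of the centre EC clusters covered 32.5% and leaf clusters 10.1% of EC24/leaf21 loci, but 16.8% and 17.3% of EC21/leaf24 loci.

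Among leaf 21 nt clusters with an EC partner, the share that met a 24 nt EC cluster depended on length. The 4565 leaf 21 nt clusters without EC overlap, of 6109 in all, enter none of these shares. Of those without overlap 29.3% measured up to 30 bp, against 26.8% of all leaf 21 nt clusters. The share was 61.1% (55.4 to 66.7%) for paired leaf clusters of up to 30 bp, 66.1% (60.1 to 71.7%) at 31 to 60 bp and 57.6% (53.0 to 62.1%) at 61 to 120 bp. It was 42.4% (36 to 49.1%) at 121 to 240 bp and 22.7% (17.8 to 28.2%) above 240 bp. The share that kept 21 nt ran the other way, at 15.3% (11.4 to 19.9%) in the shortest and 66.2% (60.2 to 71.8%) in the longest bin. In leaf the switching 21 nt clusters were hence shorter (median 68 bp) than those that kept 21 nt (164 bp, 130 to 189 bp), and close to leaf 21 nt clusters without any EC overlap (59 bp, quartiles 27 and 107 bp). For paired leaf 24 nt clusters the share with a 21 nt partner was 0.656% (0.446 to 0.930%) up to 30 bp and 1.35% (0.914 to 1.92%) above 240 bp.

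**Figure D4:**
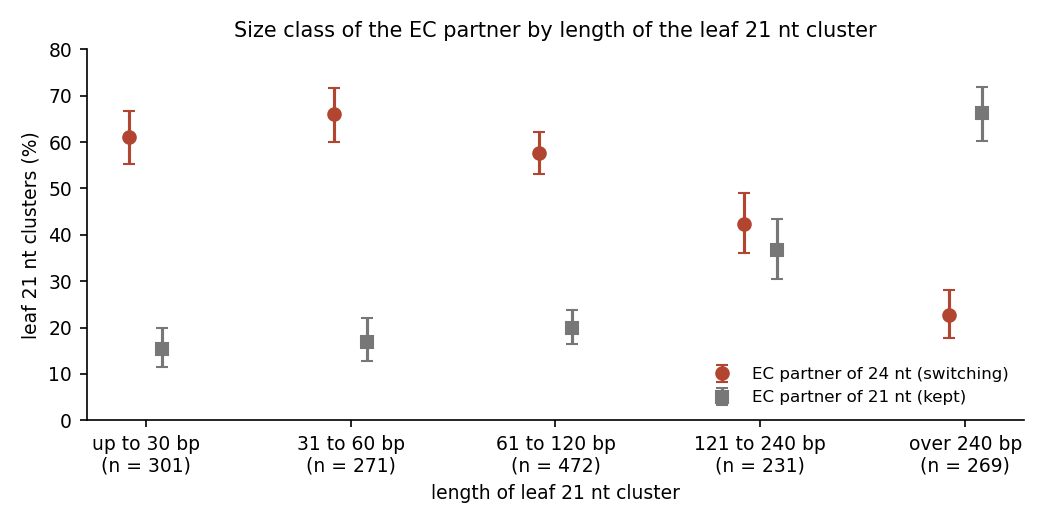
Share of paired leaf 21 nt clusters (vertical axis, %, with exact binomial 95% intervals) whose EC partner was of 24 nt (circles) or 21 nt (squares), by length of the leaf cluster (horizontal axis, with the number of paired clusters). The 24 nt share was 61.1% in the shortest bin and 22.7% in the longest, and the 21 nt share 15.3% and 66.2%.

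Viewed from EC, long 21 nt clusters also lay on leaf 24 nt clusters less often than short ones, but the shortest did not have the highest share. Among pairs with an EC 21 nt cluster of 31 to 60 bp, 40.0% (32.0 to 48.5%) lay on a leaf cluster of 24 nt, against 11.5% (7.29 to 17.1%) of those over 240 bp. In the shortest bin, of up to 30 bp, the share was 26.6% (19.5 to 34.6%), and 42% (33.8 to 50.5%) lay on a leaf cluster of 21 nt. Among pairs with an EC 24 nt cluster the share on a leaf 21 nt cluster varied little with length, between 2.20% (1.88 to 2.54%) at 61 to 120 bp and 3.36% (2.90 to 3.86%) above 240 bp.

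A cluster of up to 30 bp is hardly longer than 1 siRNA. Such short clusters made up 71 of the EC and 184 of the leaf clusters at EC24/leaf21 loci (8.94% and 23.2%), and 38 of the EC and 31 of the leaf clusters at EC21/leaf24 loci (16.8% and 13.7%). Over all pairs 10.2% of EC and 19.7% of leaf clusters were this short. Both clusters were this short at 28 EC24/leaf21 loci (3.53%) and 6 EC21/leaf24 loci (2.65%), against 3.83% of all pairs. At the other end, both clusters measured at least 100 bp at 182 EC24/leaf21 loci (22.9%) and 43 EC21/leaf24 loci (19%, 14.1 to 24.8%), compared with 47.0% of pairs that kept 21 nt and 31.3% of those that kept 24 nt. Among the 182 long EC24/leaf21 loci the EC cluster had a median of 218.5 bp against 149.5 bp in leaf, with a ratio of 1.36 (1.17 to 1.49). Pairs of this length that kept 24 nt had 1.09 (1.08 to 1.11). Among the 43 long EC21/leaf24 loci the medians were 167 bp in EC and 178 bp in leaf, and the ratio of 0.971 (0.765 to 1.16) did not differ from 1 beyond its interval.

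ShortStack assigns a strand to a cluster when a large majority of its reads come from one strand, and none otherwise. SiRNAs from both strands are the usual product of double-stranded precursors. At EC24/leaf21 loci 60.3% (56.8 to 63.7%) of EC clusters and 45.2% (41.7 to 48.8%) of leaf clusters had no strand. The corresponding shares for EC21/leaf24 loci were 53.5% (46.8 to 60.2%) and 54.9% (48.1 to 61.5%). Over all pairs 57.0% of EC and 46.8% of leaf clusters had no strand, both within the intervals of EC24/leaf21 loci. For EC21/leaf24 loci the EC interval took in the value of all pairs, and the leaf interval lay above it. Strand calls depend on length, and among loci with both clusters of at least 100 bp the EC24/leaf21 shares were 70.3% (63.1 to 76.9%) in EC and 67.0% (59.7 to 73.8%) in leaf, within each other's intervals. All pairs of that length had 69.5% in EC and 63.9% in leaf.

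Both clusters were without strand at 234 EC24/leaf21 loci (29.5%) and 70 EC21/leaf24 loci (31%), against 30.6% of all pairs. A strand was assigned in leaf alone at 245 EC24/leaf21 loci (30.9%, 27.7 to 34.2%) and in EC alone at 125 (15.7%, 13.3 to 18.5%). Pairs that kept 24 nt gave a somewhat lower share in leaf alone (27.3%, 26.7 to 27.9%), with intervals that just met. Their share in EC alone was almost the same (15.8%). At EC21/leaf24 loci both kinds were about equally frequent, with 51 in leaf alone and 54 in EC alone.

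Where both clusters had a strand, it was usually the same one. The strands agreed at 160 of 190 EC24/leaf21 loci (84.2%, 78.2 to 89.1%) and 40 of 51 EC21/leaf24 loci (78.4%, 64.7 to 88.7%). They agreed at 124 of 128 pairs that kept 21 nt (96.9%, 92.2 to 99.1%) and 4731 of 5184 that kept 24 nt (91.3%, 90.5 to 92.0%), and the intervals of both switching sets lay below these. Among pairs that overlapped by at least 0.5 of the shorter cluster, strands agreed at 88% (82.0 to 92.5%) of EC24/leaf21 and 78.7% (64.3 to 89.3%) of EC21/leaf24 loci, against 92.4% (91.6 to 93.1%) where 24 nt was kept. With at least 0.5 of the longer cluster the shares were 93.2% (84.7 to 97.7%) and 82.6% (61.2 to 95%), against 95.2% (94.3 to 96.1%). The difference between EC24/leaf21 loci and pairs that kept 24 nt was thus within the intervals under both requirements. The interval of EC21/leaf24 loci lay below that of pairs that kept 24 nt under the first requirement and overlapped it under the second. Within each switching set the shares with and without these requirements had overlapping intervals. Opposite strands were thus found at 30 EC24/leaf21 and 11 EC21/leaf24 loci. With both clusters at least 50 bp long the strands agreed at 58 of 71 EC24/leaf21 loci (81.7%, 70.7 to 89.9%), against 63 of 65 that kept 21 nt (96.9%, 89.3 to 99.6%) and 90.9% of those that kept 24 nt. For EC21/leaf24 loci of that length they agreed at 15 of 20 (75%, 50.9 to 91.3%). With both at least 100 bp long the strands agreed at 1 of 2 EC21/leaf24 loci and at 28 of 31 EC24/leaf21 loci. The interval of the latter (74.2 to 98.0%) took in the values of the kept pairs.

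The 3 EC24/leaf21 loci of that length with opposite strands, named here after their values were seen, all had the EC cluster on the plus and the leaf cluster on the minus strand. At chromosome 2 the EC cluster (1670620 to 1670807, 188 bp) lay wholly inside the leaf cluster (1670617 to 1670851, 235 bp). Both others were on chromosome 10, with EC clusters of 209 bp (14395283 to 14395491) and 179 bp (16042026 to 16042204) and leaf clusters of 110 bp (14395404 to 14395513) and 121 bp (16041986 to 16042106).

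Along the chromosomes, EC24/leaf21 loci were spread more evenly than loci that kept 21 nt. Each of the 19 chromosomes was divided into 5 sections of equal length. From the first to the last section EC24/leaf21 loci numbered 122, 157, 140, 131 and 148, and EC21/leaf24 loci numbered 34, 47, 32, 41 and 51. Their density in the end sections was 0.967 (0.876 to 1.06) and 1.04 (0.866 to 1.21) times the chromosome mean, so neither set was detectably denser or sparser there. Pairs that kept 21 nt had 39.4% (34.6 to 44.5%) in the last section alone, and 57.7% of all such pairs lay within 10000 bp of another. The even spread was not particular to switching loci. Pairs that kept 24 nt had 20.8%, 22.8%, 16.6%, 18.3% and 21.5% from the first section to the last.

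The share of paired leaf 21 nt clusters that met 24 nt in EC was highest in the middle section over all lengths, but not among long clusters. It was 47.5% (41.2 to 53.8%), 55.5% (49.5 to 61.4%), 66.4% (59.5 to 72.7%), 53.5% (47.0 to 59.8%) and 41.0% (35.9 to 46.3%) from the first section to the last. The interval of the middle section lay above those of the first and last. Among leaf clusters of up to 120 bp the middle share was 74.7% (67.3 to 81.2%), against 55.1% (47.4 to 62.5%) in the first and 54.9% (48.0 to 61.7%) in the last section. Among longer ones the share was 30.4% (20.5 to 41.8%), 44.8% (32.6 to 57.4%), 38.8% (25.2 to 53.8%), 36.5% (26.3 to 47.6%) and 20.9% (14.7 to 28.4%) from the first section to the last. It was highest in the second section, whose interval lay above that of the last, and the interval of the middle section overlapped all others. For paired leaf 24 nt clusters the share that met 21 nt in EC lay between 0.728% and 1.06% in the 5 sections, with overlapping intervals.

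Chromosomes differed in the same share. It was highest on chromosomes 8 (41 of 57, 71.9%, 58.5 to 83.0%) and 1 (49 of 71, 69.0%, 56.9 to 79.5%), and lowest on chromosomes 7 (12 of 39, 30.8%, 17.0 to 47.6%) and 9 (29 of 79, 36.7%, 26.1 to 48.3%). Over all lengths the intervals of chromosomes 8 and 1 lay above those of chromosomes 7 and 9, while most other neighbours in this order overlapped. Among leaf clusters of up to 120 bp the shares of chromosomes 8 and 1 were 77.1% (62.7 to 88.0%) and 78.6% (65.6 to 88.4%). These intervals lay above that of chromosome 7 (33.3%, 15.6 to 55.3%) but overlapped that of chromosome 9 (52.3%, 36.7 to 67.5%). Among longer clusters the intervals of these chromosomes all overlapped. Chromosome 11 had 34 EC24/leaf21 loci beside 2 that kept 21 nt, whereas chromosome 13 had 50 beside 57. On chromosome 13 the share was 54.8% (42.7 to 66.5%) for leaf clusters of up to 120 bp and 16.7% (8.29 to 28.5%) for longer ones, and on chromosome 14 it was 65.7% and 69.0%. The most EC24/leaf21 loci on one chromosome were the 64 of chromosome 14. EC21/leaf24 loci numbered 7 to 14 per chromosome, and their share of paired leaf 24 nt clusters lay between 0.606% on chromosome 4 and 1.36% on chromosome 15, with overlapping intervals. The unassigned sequence (chrUn) and the unordered parts of single chromosomes together held 96 EC24/leaf21 loci (12.1%, 9.90 to 14.6%) and 21 EC21/leaf24 loci (9.29%, 5.84 to 13.9%), against 9.98% of all pairs.

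**Figure D5:**
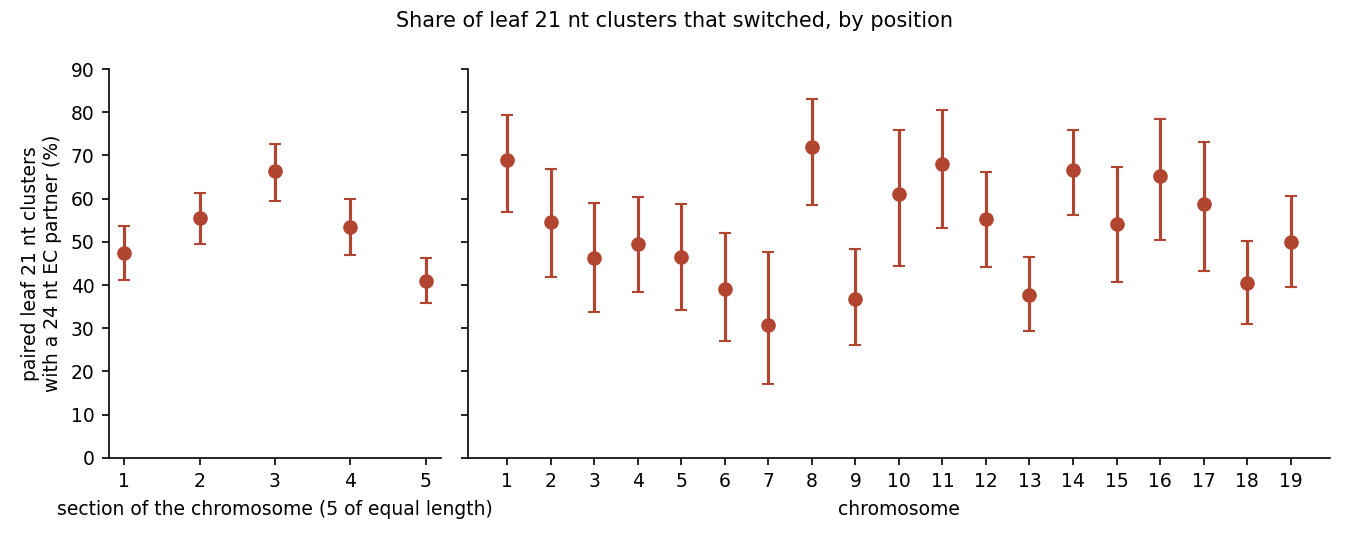
Share of paired leaf 21 nt clusters with a 24 nt EC partner (vertical axis, %, with exact binomial 95% intervals) by section of the chromosome (left; 5 of equal length on 19 chromosomes) and by chromosome (right). The middle section had 66.4% and the last 41.0%, and chromosomes ranged between 30.8% on chromosome 7 and 71.9% on chromosome 8.

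The surroundings of switching loci resembled those of pairs that kept 24 nt more than those of pairs that kept 21 nt. They held larger shares of 21 nt clusters than the surroundings of pairs that kept 24 nt, however. Within 5000 bp of EC24/leaf21 loci, 80.5% of the other EC clusters were of 24 nt and 2.24% of 21 nt, while around pairs that kept 24 nt these shares were 79.7% and 1.61%. Around pairs that kept 21 nt they were 44.0% and 35.6%. In the whole EC list 175575 of 227847 clusters were of 24 nt and 4505 of 21 nt. The EC shares near EC24/leaf21 loci were thus close to those of the whole list. In leaf, 15.6% of the other clusters near EC24/leaf21 loci were of 21 nt, against 4.18% near pairs that kept 24 nt and 56.7% near pairs that kept 21 nt. In the whole leaf list 6109 of 89597 clusters were of 21 nt, a smaller share than near EC24/leaf21 loci. Around EC21/leaf24 loci 5.56% of other EC clusters and 8.17% of other leaf clusters were of 21 nt, both above the shares in the whole lists. A median of 6 further EC clusters and 2 further leaf clusters of 24 nt lay within 5000 bp of an EC24/leaf21 locus, and 4 and 2 within that distance of an EC21/leaf24 locus.

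Most switching loci had no other 21 nt cluster nearby, but this was less common among them than among pairs that kept 24 nt. No other 21 nt cluster of either library lay within 5000 bp of 519 EC24/leaf21 loci (65.4%, 61.9 to 68.7%) and 158 EC21/leaf24 loci (69.9%, 63.5 to 75.8%). Such isolation was seen at 17.6% (14.2 to 21.4%) of pairs that kept 21 nt and at 79.3% (78.8 to 79.8%) of those that kept 24 nt. Another leaf 21 nt cluster stood within 5000 bp of 207 EC24/leaf21 loci (26.1%, 23 to 29.3%), against 75.5% of pairs that kept 21 nt and 11.7% of those that kept 24 nt. Another EC 21 nt cluster stood that near to 40 EC21/leaf24 loci (17.7%, 13.0 to 23.3%), against 68.8% and 11.0%. Clusters of 24 nt in both libraries flanked 589 EC24/leaf21 loci (74.2%) and 180 EC21/leaf24 loci (79.6%). They flanked 79.4% of pairs that kept 24 nt and 49.4% of those that kept 21 nt.

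Several leaf clusters lay on 78 of the 785 distinct EC clusters of EC24/leaf21 loci. At 55 of these 78 at least 1 of the leaf clusters was of 24 nt, like the EC cluster, at 4 all were of 21 nt, and the other 19 held 21 nt together with other or undetermined sizes. Of the 223 distinct EC clusters of EC21/leaf24 loci, 6 carried several leaf clusters, among them 2 with a leaf cluster of 21 nt and 3 with leaf clusters of 24 nt alone. Among the EC clusters of EC24/leaf21 loci, 5 were the partner of 2 leaf 21 nt clusters each and 1 was the partner of 5.

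Members of the same set seldom lay close together. The nearest other EC24/leaf21 locus on the same sequence was a median of 167.2 kb away, and 136 loci (17.1%, 14.6 to 19.9%) had one within 10000 bp. For EC21/leaf24 loci the median distance was 848.5 kb and 23 (10.2%, 6.56 to 14.9%) had one within 10000 bp. Pairs that kept 21 nt were far more clustered, at a median of 0.861 kb, although they were fewer than the EC24/leaf21 loci. Chained at gaps of up to 10000 bp, EC24/leaf21 loci formed 658 single loci, 43 groups of 2, 9 of 3, 4 of 4 and 1 of 7. EC21/leaf24 loci formed 203 single loci, 8 groups of 2, 1 of 3 and 1 of 4.

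The group of 7 was on chromosome 19 (5715961 to 5719446) and was the largest of either set. All 7 leaf clusters in these 3486 bp were of 21 nt, with lengths of 66, 67, 213, 557, 87, 494 and 623 bp from left to right, and none had a strand assigned. In EC the last 5 of them fell on 1 cluster of 24 nt, of 2692 bp (5716972 to 5719663), which also had no strand. Leaf clusters covered 70.7% of it, 4 of the 5 lay wholly inside it, and the leftmost (5716902 to 5717114) shared 143 bp with it. The first 2 leaf clusters met EC clusters of 101 and 47 bp, both of 24 nt. No leaf 24 nt cluster and no EC 21 nt cluster lay in the group. The 5 pairs on this EC cluster were also the 5 EC24/leaf21 loci of greatest summed length.

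Of the 4 groups of 4 EC24/leaf21 loci, the shortest were on chromosomes 9 and 3. On chromosome 9 (21115929 to 21118281) leaf clusters of 68, 36, 140 and 68 bp met EC clusters of 548, 432 and 243 bp, the first of which carried 2 of the leaf clusters. The EC clusters had no strand, whereas the first 2 leaf clusters were on the plus strand. All leaf clusters of 21 and 24 nt in this stretch were members, and EC had 6 clusters of 24 nt and none of 21 nt. On chromosome 3 (19218256 to 19222440) leaf clusters of 160, 345, 24 and 28 bp met EC clusters of 292, 594, 112 and 46 bp, beside 2 leaf clusters that were already of 24 nt.

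Of the EC21/leaf24 groups, that on chromosome 15 (19416869 to 19419475) was the only one of 3, and there 3 EC clusters of 21 nt, of 107, 160 and 628 bp, lay on leaf clusters of 24 nt of 75, 155 and 558 bp. No EC cluster of 24 nt and no leaf cluster of 21 nt lay in these 2607 bp, and leaf had 1 further cluster of 24 nt there. At the third pair EC (19418832 to 19419459) and leaf (19418918 to 19419475) shared 542 bp. On chromosome 11 (14470138 to 14484760) EC clusters of 193, 144, 278 and 375 bp lay on leaf clusters of 429, 124, 255 and 1099 bp within 14623 bp. This stretch was mixed, with 14 EC clusters of 24 nt beside 5 of 21 nt. Its second pair had the EC cluster on the minus and the leaf cluster on the plus strand. On chromosome 3 a single EC cluster of 655 bp on the minus strand (10152237 to 10152891) lay on 2 short leaf clusters of 27 and 35 bp on the same strand.

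The remaining EC21/leaf24 loci of greatest summed length were on chrUn and chromosomes 19 and 17. The longest pair was on chrUn, where an EC cluster of 696 bp (29343809 to 29344504) lay inside a leaf cluster of 1118 bp (29343387 to 29344504) and both ended at the same base. On chromosome 19 an EC cluster of 598 bp (18987360 to 18987957) shared 571 bp with a leaf cluster of 771 bp on the minus strand (18987387 to 18988157). To its left lay another such locus, with an EC cluster of 263 bp (18986844 to 18987106) inside a leaf cluster of 532 bp (18986575 to 18987106). On chromosome 17 an EC cluster of 328 bp (7293522 to 7293849) shared 273 bp with a leaf cluster of 617 bp (7293577 to 7294193). To its right an EC cluster of 331 bp (7294282 to 7294612) enclosed a leaf cluster of 270 bp (7294303 to 7294572), again 21 nt in EC and 24 nt in leaf.

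The extremes of the length ratio, among pairs with both clusters of at least 50 bp, showed both kinds of boundary change. At EC24/leaf21 loci the greatest ratios were on the chromosome 19 cluster described above (30.9 and 12.6) and on chromosome 10, where a 1086 bp EC cluster (16586762 to 16587847) enclosed a 54 bp leaf cluster on the plus strand (16587407 to 16587460) together with another leaf cluster of 21 nt and one of 24 nt. The least ratios were found where a short stranded EC cluster touched a long leaf cluster with no strand. On chromosome 9 the EC cluster (3018780 to 3018845) measured 66 bp against 958 bp in leaf. On chromosome 13 (EC 19947851 to 19947910) the lengths were 60 bp in EC and 777 bp in leaf, and on chromosome 12 (EC 16914280 to 16914366) they were 87 bp in EC and 964 bp in leaf. EC clusters of any size class covered 5.74%, 10.4% and 9.02% of these leaf clusters, so the change of call rested on a small part of each. The leaf cluster on chromosome 13 also met an EC cluster of 21 nt, and that on chromosome 9 a further EC cluster of 24 nt.

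At EC21/leaf24 loci the greatest ratios were 6.55 on chromosome 2 (EC 15386639 to 15387247, 609 bp, against 93 bp in leaf), 4.99 on chromosome 14 (EC 11293738 to 11294306, 569 bp, against 114 bp in leaf) and 4.21 on chromosome 12 (EC 7580682 to 7581220, 539 bp, against 128 bp in leaf). The chromosome 2 cluster also carried a leaf cluster of 21 nt, which overlapped it further. The least ratios were 0.126 on chromosome 4 (EC 10614785 to 10614844, 60 bp, against 477 bp in leaf), 0.181 on chromosome 16 (EC 16106788 to 16106878, 91 bp, against 504 bp in leaf) and 0.19 on the unordered part of chromosome 13 (EC 1954356 to 1954458, 103 bp, against 542 bp in leaf). The chromosome 16 leaf cluster also met EC clusters of 24 and 22 nt, and that of chromosome 13 an EC cluster of undetermined size.

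At a few loci the size changed while the boundaries hardly moved. The overlap made up at least 90% of the joint length at 31 EC24/leaf21 loci (3.90%) and 10 EC21/leaf24 loci (4.42%), against 14.0% of pairs that kept 21 nt and 6.87% of those that kept 24 nt. Among clusters of 60 to 300 bp on chromosomes, the closest EC24/leaf21 match was on chromosome 19, with an EC cluster of 267 bp (15749655 to 15749921) and a leaf cluster of 266 bp (15749654 to 15749919). On chromosome 2 clusters of 220 bp in EC and 216 bp in leaf began at the same base (1290369) and were both on the plus strand. On chromosome 7 clusters of 265 bp in EC and 260 bp in leaf began at 19554047, without strand. Chromosome 14 had 2 such loci, of 96 bp in EC and 93 bp in leaf (from 6568308) and of 93 bp in EC and 94 bp in leaf (EC from 5560787).

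The closest EC21/leaf24 matches were of the same kind. They measured 96 bp in EC and 98 bp in leaf on chromosome 10 (both from 16101490), 109 bp in EC and 112 bp in leaf on chromosome 1 (both from 5075467), 167 bp in EC and 172 bp in leaf on chromosome 9 (EC from 4535423), and 88 bp in EC and 85 bp in leaf on chromosome 13 (both from 8220777). The last of the 5 was the second pair of the chromosome 15 group, with 160 bp in EC and 155 bp in leaf. Of these 10 closest loci in both sets, both clusters were without strand at 6.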

How the data were processed

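One EC and 1 leaf small RNA library were analysed. The authors trimmed and size filtered the reads, removed tRNA, rRNA and miRNA reads, mapped the remainder to the PN40024 12X genome with ShortStack, which places multi-mapping reads by the uniquely mapping reads nearby, and called clusters per library. Its minimum coverage and padding were not found in the sources used here. Deposited lists hold start, end, strand, DicerCall and miRNA mark, and 0 of the clusters in either list had a score or count, so depth per cluster is unknown and clusters resting on few reads weigh as much as deep ones. The EC list is the larger, and no correction for depth was applied.

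Each leaf cluster was paired with the EC cluster of longest overlap (at least 1 bp, ties to the lower start). The last cluster end in either list stood for the length of a chromosome. Flanking clusters were counted within 5000 bp of the joint extent of a pair. The members and the comparisons were chosen with earlier results of these data known. Named loci were, per set, the 5 pairs of greatest summed length, the 3 of greatest and 3 of least ratio with both clusters of at least 50 bp, EC clusters serving 3 or more members, the 3 largest groups chained at 10000 bp, and the 5 of greatest overlap share with both clusters of 60 to 300 bp. Pairing was checked on simulated lists against a full search. Python 3.11.15, pandas 2.3.3 and scipy 1.17.1 were used. Positions relative to genes or transposable elements and base composition, planned beforehand, were not run because no 12X sequence or annotation was used here, so no sequences are shown and no gene is named.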

Additional observations from a re-analysis of the deposited data

How the results depend on the processing

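Of 84 values recomputed under other settings, 64 stayed within the interval of the reported value (for numbers of loci, within 1.5 times) and 20 moved. Requiring an overlap of at least 0.5 of the longer cluster left 234 EC24/leaf21 and 82 EC21/leaf24 loci. Their median EC/leaf ratios were then 1.11 and 0.928, nearer to 1 as this requirement itself limits the ratio, and strands agreed at 93.2% of EC24/leaf21 loci. Lists limited to clusters of at least 50 bp gave 430 and 118 loci, a ratio of 1.55 for EC24/leaf21 loci, and another leaf 21 nt cluster within 5000 bp of 29.8% of them. At 100 bp there were 184 and 45 loci, with ratios of 1.35 and 0.971. The strands then agreed at 90.6% of EC24/leaf21 loci, their density in the end sections of the chromosomes was 1.12 (0.925 to 1.32) times the mean, against 0.967 with all clusters, neither of them distinguishable from 1, and another 21 nt cluster stood near 38.6% of EC24/leaf21 and 35.6% of EC21/leaf24 loci. Choosing a leaf partner for each EC cluster gave a ratio of 1.67 for EC24/leaf21 loci. Flanks of 1000 bp lowered the share with another 21 nt cluster to 16.2% and 11.9%. Reciprocal partners, chromosomes alone, counting each EC cluster once and an overlap of 0.5 of the shorter cluster moved no value. Flanking clusters were counted on the full lists throughout. The planned results on genes and base composition were not run. The 51 stranded EC21/leaf24 pairs limit the precision of their strand share, and without read counts the precision of single DicerCalls is unknown. No paired analysis was possible because there was 1 library per tissue.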

Other observations

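Among leaf clusters with an EC partner, those of the other sizes also met 24 nt clusters in EC, and more often than those of 21 nt did. The EC partner was of 24 nt for 198 of 297 leaf clusters of 20 nt (66.7%, 61 to 72.0%), 325 of 496 of 22 nt (65.5%, 61.2 to 69.7%) and 1701 of 2033 of 23 nt (83.7%, 82.0 to 85.3%), against 51.4% (48.9 to 53.9%) for 21 nt. Partners of the same size made up 2.36% for 20 nt, 4.03% for 22 nt and 3.2% for 23 nt. For 21 nt they made up 29.1% and for 24 nt 86.5%. Over all pairs the EC partner was of 20 nt in 0.609%, of 22 nt in 0.875% and of 23 nt in 2.47%. It was of 21 nt in 2.43% and of 24 nt in 79.7%. The same-size shares for 20 and 22 nt thus lay above the shares of these EC sizes over all pairs. Leaf clusters of 22 nt had an EC partner of 21 nt in 38 cases (7.66%, 5.48 to 10.4%). In the reverse direction, 172 of the 24631 paired leaf 24 nt clusters (0.698%, 0.598 to 0.810%) met an EC cluster of 22 nt, and 226 (0.918%) met one of 21 nt. Over all pairs these EC sizes had shares of 0.875% and 2.43%, so the share of 21 nt lay further below its value over all pairs. Whether few reads behind a cluster bear on these shares was not tested.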
